A study of Aspergillus nidulans with 4 samples.

Results

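Alpha-1,3-glucan is a polysaccharide of the outer wall of many filamentous fungi, and 5 genes of its synthesis and turnover in Aspergillus nidulans are described here, chosen by gene identifier from 10930 genes in the files. They are the synthase genes agsA (AN5885) and agsB (AN3307), the amylase-like neighbours of agsB, amyD (AN3308) and amyG (AN3309), and the alpha-1,3-glucanase gene mutA (AN7349). RNA of strain AN1404, which lacks the mitogen-activated protein kinase gene mpkA, was set against that of AN1405, the parental strain, each with 2 libraries. The labels describe the strains only by number and as parental or -mpkA. Both strains grew unstressed in rich yeast extract and glucose medium at pH 3.3 and 28 °C. A seed culture of 12 hours was followed by about 20 hours in a large flask, up to late exponential growth. The series text mentions biological and technical replicates without tying libraries to either, so p-values measure only the spread between these libraries. The deletion is given for 1 strain, and no strain with mpkA put back was analysed here.

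As background, alpha-1,3-glucan synthases are large membrane enzymes that build the polymer from activated glucose and place it on the outer side of the wall, where it makes hyphae and germinating spores stick together. In A. nidulans AgsB is known as the main synthase of vegetative hyphae and AgsA as a minor one tied to conidiation. AmyG is known as an intracellular amylase-like protein needed for normal amounts of the polymer. AmyD is known to lower its amount when overproduced. MutA is known to break down stored alpha-1,3-glucan during sexual development and to appear in the Hülle cells around fruiting bodies. The kinase encoded by mpkA belongs to the cell wall integrity pathway, and in other aspergilli the transcription factor RlmA is among its targets.

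Reads on genes came to 34871842 and 33027324 in the parental libraries and to 31674270 and 31609185 in the deletion libraries. These reads per library were recovered from the means that the authors deposited, and the libraries are called a and b. A normalized read is a read divided by the size factor of its library. The deleted gene mpkA had 6 and 3 reads in the deletion libraries against 6993 and 6437, in keeping with the labels. Between libraries of a strain the median gene with at least 20 reads in both differed by 0.05 on the log2 scale in each strain. A q-value under 0.05 in the authors' deposited table, which is what called means here, was reached by 7585 of 10505 genes tested (72.2%), so a call by itself is common in this comparison.

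The minor synthase gene agsA and the glucanase gene mutA fell, both amylase-like genes rose, and the main synthase gene agsB was not called. By the authors' q-value 4 of the 5 genes were called, 2 higher and 2 lower, beside 72.2% of all genes tested. Of all genes tested, 36.3% were called higher and 35.9% lower. The median log2 change of the 5 genes was -0.07, and that of all genes tested was -0.02. Called changes of at least 2-fold were found for agsA, amyG and mutA, that is 3 of the 5 genes, beside 27.2% of all genes tested. Of all genes tested, 18.1% were called at least 2-fold lower, as were agsA and mutA, and 9.12% at least 2-fold higher, as was amyG. On the reads of each library, edgeR's quasi-likelihood test called all 5 genes, beside 86.5% of 9338 genes. With a coefficient of variation set to 0.2, edgeR's likelihood ratio test called 3 of the 5, beside 43.9%.

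The synthase gene agsB (plus strand, positions 1169989 to 1177855; the files give no chromosome) is annotated as the catalytic subunit of the major complex, and RefSeq names it ags1. It had 12512 and 11918 reads in the parental libraries and 9409 and 9280 in the deletion libraries. Scaled by size factors these were 10891 and 10995 normalized reads against 10463 and 10378. Both deletion libraries lay just below both parental ones, a distance between strains that 87.7% of genes tested also showed. The authors' deposited table gave a ratio of 1.05 in favour of the parental strain and a q-value of 0.0723. With edgeR's quasi-likelihood test the log2 change was -0.09 (SE 0.03, adjusted p = 0.00514), so the call depended on the test while the size stayed small. With library totals as the scale, under which the median of all genes itself shifted from -0.02 to -0.21, edgeR gave -0.29 for agsB (adjusted p = 8.02e-09).

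The other synthase gene, agsA (positions 1910055 to 1918410, minus strand, named ags2 by RefSeq), was far less abundant and fell. It had 225 and 207 reads in the parental libraries and 66 and 63 in the deletion libraries. These were 196 and 191 normalized reads against 73.4 and 70.5. The strains were well apart, and each pair of libraries lay within 0.06 of each other on the log2 scale. The authors' deposited table had agsA lower by a factor of 2.69 (q = 2.96e-12). The edgeR log2 change was -1.44 (SE 0.13, adjusted p = 2.47e-08). Among all genes tested, this change stood at the 16.4th percentile, counted from the largest fall.

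A conserved upstream open reading frame of agsA is listed in the files as a feature of its own, 15 bp long, and had 0 reads in all 4 libraries. It lies wholly within agsA on the same strand, so its count depends on how reads over nested features were assigned. The 0 reads therefore say nothing about its transcription. The 3′ end of agsA shares 14 bp, positions 1910055 to 1910068, with AN5886 on the opposite strand, and the kit did not mark the strand. AN5886, annotated as an alpha-isopropylmalate isomerase of amino acid synthesis, had 1182 and 1063 reads against 2335 and 2284 and so moved the other way. How reads that could map to both synthase genes were treated is not given in the sources used here.

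Set side by side per length, agsB dominated the synthase transcripts in both strains, and more so without mpkA. Per kb of gene span, introns included, the level of agsB was 60.1 times that of agsA in the parental strain and 154 times in the deletion strain. Of the reads on the pair, agsA took 1.77% (95% exact binomial interval 1.54 to 2.01%) and 1.71% (1.48 to 1.95%) in the parental libraries. In the deletion libraries its share was 0.697% (0.539 to 0.885%) and 0.674% (0.519 to 0.862%). These intervals cover counting error only, and those of the strains did not overlap. This share does not depend on how libraries are scaled. With 2 libraries against 2, an exact permutation test of such a share could not go below p = 0.333.

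**Figure D1:**
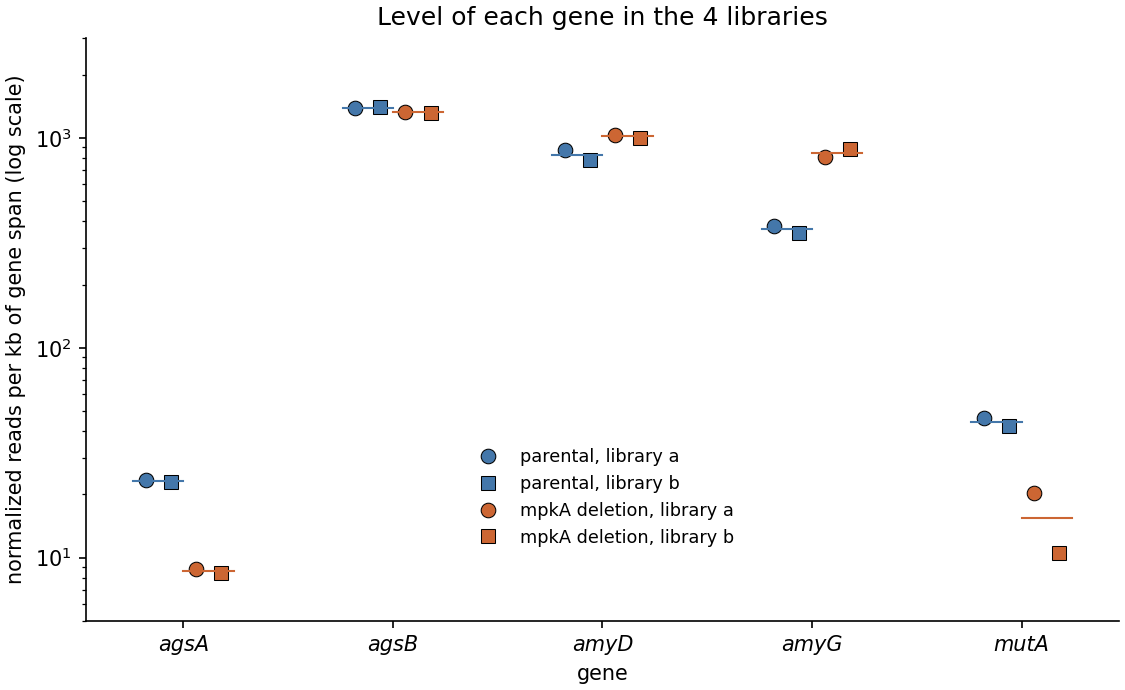
Level of each gene in every library, in normalized reads per kb of gene span on a log axis; circles are library a, squares library b, and short lines the mean of a strain. agsB stays near 1391 and 1325, amyG rises from 368 to 850.1, and agsA and mutA lie lowest and fall.

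The amylase-like gene amyG (positions 1162512 to 1164849, minus strand) rose the most of the 5 genes. It had 1027 and 894 reads in the parental libraries and 1713 and 1851 in the deletion libraries, or 894 and 825 against 1905 and 2070 normalized reads. All deletion values were above 2 times the parental ones. The authors' deposited table gave a 2.31-fold higher level (q = 7.34e-38). The edgeR log2 change was 1.19 (SE 0.05, adjusted p = 1.29e-12), at the 90.8th percentile of all genes tested in the authors' table.

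Its neighbour amyD (positions 1165231 to 1168206, minus strand) moved in the same direction by much less. Reads were 2982 and 2537 against 2764 and 2656, and normalized reads 2596 and 2341 against 3074 and 2970. The deletion libraries were above both parental ones, although the parental libraries were themselves 0.15 apart on the log2 scale. In the authors' deposited table amyD was 1.22-fold higher (q = 0.0001), and edgeR gave a log2 change of 0.27 (SE 0.04, adjusted p = 1.78e-05). Scaled by library totals it was 0.08 (adjusted p = 0.106), and the call was lost.

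The balance of the pair shifted toward amyG. In the parental libraries amyG took 25.6% (95% exact binomial interval 24.3 to 27.0%) and 26.1% (24.6 to 27.6%) of the reads on both genes. The deletion libraries gave 38.3% (36.8 to 39.7%) and 41.1% (39.6 to 42.5%). Per kb of gene span the level of amyD was 2.26 times that of amyG in the parental strain and 1.19 times in the deletion strain.

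**Figure D2:**
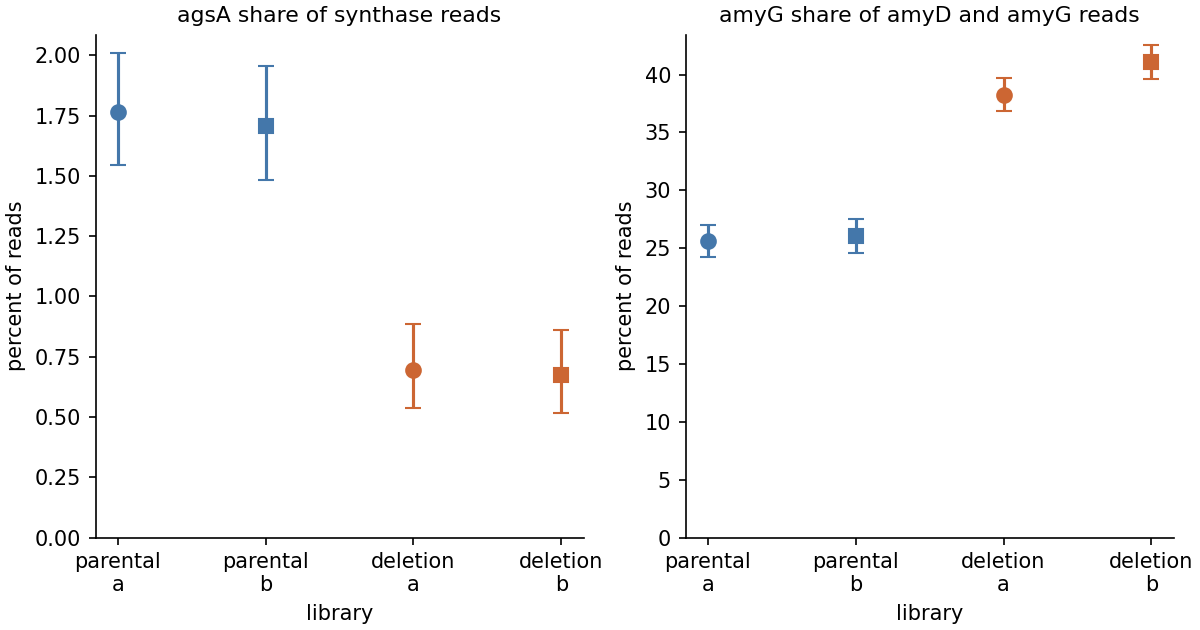
Percent of the reads on agsA and agsB that fell on agsA (left) and of the reads on amyD and amyG that fell on amyG (right), per library; bars are 95% exact binomial intervals for counting error. The agsA share is about 1.7% in the parental and 0.7% in the deletion libraries, and the amyG share rises from 25.6% and 26.1% to 38.3% and 41.1%.

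The glucanase gene mutA (positions 218464 to 220050, minus strand) had few reads and fell. There were 84 and 73 reads in the parental libraries and 29 and 15 in the deletion libraries, or 73.1 and 67.3 against 32.2 and 16.8 normalized reads. Both deletion libraries were below both parental ones, but they differed from each other by 0.94 on the log2 scale. The authors' deposited table had mutA lower by a factor of 2.87 (q = 1.33e-05), and the edgeR log2 change was -1.53 (SE 0.25, adjusted p = 2.61e-05). Without deletion library a it was -2.07, and without deletion library b it was -1.14. Each of these fits leaves 1 deletion library, so the spread of that strain was not measured in them. The size of the fall thus depended on the library left out.

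Across the 5 genes the order of levels per kb of gene span was the same in both strains. In the parental strain it ran from agsB (1391 normalized reads per kb) over amyD (829), amyG (368) and mutA (44.3) to agsA (23.1). In the deletion strain it was 1325 for agsB, 1015 for amyD, 850.1 for amyG, 15.4 for mutA and 8.61 for agsA. Neighbours in this order did not overlap between libraries of a strain. The closest by ratio were amyD and amyG in the deletion strain, where amyD had 998 per kb and amyG 885 in library b. Next came mutA and agsA in the same strain, where mutA had 10.6 per kb in library b and agsA 8.78 in library a. Among all genes of the parental strain, agsB stood at the 78.7th percentile of level per kb and agsA at the 20.5th. amyG went from the 48.3rd percentile in the parental strain to the 67.0th in the deletion strain.

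**Figure D3:**
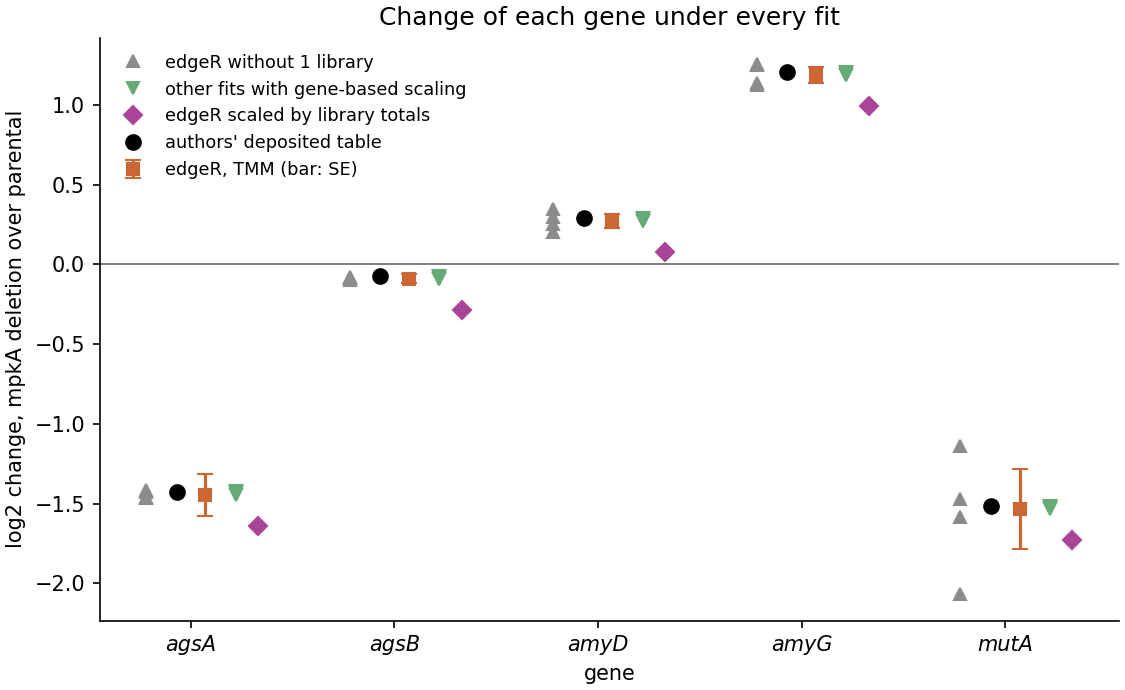
Log2 change of each gene, deletion over parental strain, in the authors' deposited table (black), in edgeR (orange, bar SE) and under the alternatives. Fits scaled by library totals (purple) lie lower for all 5 genes and put amyD at 0.08 and agsB at -0.29; leaving out a library moves mutA between -1.14 and -2.07.

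The genes at agsB lie close together. amyD and agsB are transcribed away from each other with 1782 bp between them, and amyG lies 381 bp beyond amyD on the same strand. Of 10 flanking genes by identifier, 3 were called lower, 1 higher and 6 not called in the authors' deposited table. Of all genes tested, 35.9% were called lower and 36.3% higher. The 6 not called had at most 36 reads each over the 4 libraries, and they included all 5 on the far side of agsB. Of these 6 genes edgeR tested AN3302 alone, with 2 and 9 reads against 14 and 11, and gave a log2 change of 1.46 (adjusted p = 0.017). That call was lost without parental library a (0.72, adjusted p = 0.20) and without deletion library a (1.29, adjusted p = 0.0654). AN3310, a predicted GPI-anchored protein gene 529 bp beyond amyG, had 12462 and 11357 reads against 7417 and 7889 and was lower by a factor of 1.25 in the authors' deposited table (q = 1.18e-09). Beyond it AN3311, with a transmembrane transport domain, and AN3312, a putative L-xylulose reductase, had log2 changes of -2.41 and -1.72 in the same table. The first 3 genes beyond amyG were thus called lower, while amyG, amyD and the next gene out, AN3313, were called higher.

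**Figure D4:**
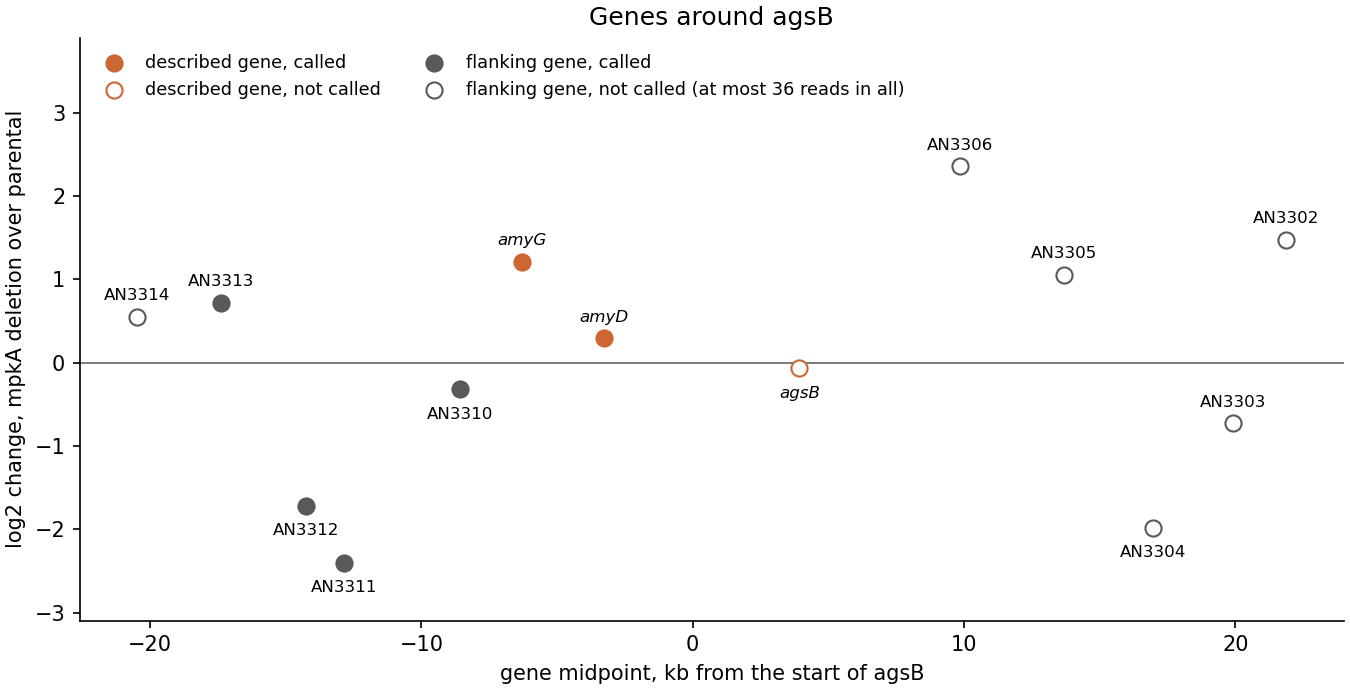
Log2 change in the authors' deposited table of agsB, amyD, amyG (orange) and 10 flanking genes (grey), by distance of the gene midpoint from the start of agsB in kb; filled points were called. amyG, amyD and AN3313 were called higher, the genes between amyG and AN3313 lower, and all flanking genes on the right of agsB have at most 36 reads in all.

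The flanks of the other genes were counted in the same way. Around agsA, 5 of 8 flanking genes were called higher, 1 lower and 2 not called in the authors' deposited table, with log2 changes from -0.27 to 1.96. Around mutA all 8 flanking genes were called higher, with log2 changes from 0.13 to 1.30. Of all genes tested, 36.3% were called higher.

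Other alpha-1,3-glucanase genes were mixed. The word rule for alpha-glucan genes missed agsA and agsB, whose annotation writes alpha-1,3 glucan with a space. It found 6 genes, mutA and 4 putative alpha-1,3-glucanases plus the 1,4-alpha-glucan branching enzyme gene AN2314. Called lower were 4, higher 1 and not called 1 in the authors' deposited table, beside 35.9% of all genes called lower and 36.3% higher, with a median log2 change of -0.89 beside -0.02 over all genes tested. AN9042 had 59 and 56 reads against 6 and 1 and in that table was 13.2-fold lower (q = 2.76e-11). Its edgeR log2 change of -3.70 became -5.39 without deletion library a and -2.94 without deletion library b, so its size rests on few reads. AN1604 had 9 and 8 reads in the parental libraries and 0 in both deletion libraries. Taking 3 reads over the deletion libraries as the floor, it was 4.55-fold lower (q = 0.0075 in the same table). That fold carries no confidence level and leaves out the counting error of the parental reads.

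Among these glucanase genes, 1 rose. AN11064 had 203 and 213 reads against 318 and 282 and was 1.79-fold higher (q = 2.84e-09) in the authors' deposited table. AN3790 had 35 and 37 reads against 27 and 26 (q = 0.854). The branching enzyme gene AN2314, whose product belongs to glycogen synthesis, was 1.19-fold lower (q = 5.19e-05). The last 3 genes are below 2-fold and were named after their values were seen.

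No other amylase gene was called higher in the authors' deposited table, unlike amyD and amyG. Of 8 other genes annotated as alpha-amylases or glucoamylases, 5 were called lower, 0 higher and 3 not called in the authors' deposited table, beside 35.9% of all genes called lower. The 3 not called were AN3402, AN4507 and AN7402, with 1 to 34 reads over the 4 libraries. For AN4507, with 6 and 6 reads against 10 and 12, edgeR's quasi-likelihood test gave a rise (adjusted p = 0.0241), a call lost without any 1 library (adjusted p = 0.0542 to 0.157). The median log2 change of the 8 genes was -1.26, or -1.08 without AN7402, which had 1 read in all.

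AN2018, a putative alpha-amylase, fell the furthest, from 1486 and 1512 reads to 50 and 54, a 23.2-fold drop in the authors' deposited table (q = 1.53e-218). The putative glucoamylase AN11143 had 73 and 59 reads against 21 and 18 and was 2.71-fold lower (q = 0.0001). The putative alpha-amylase AN3388 had 27 and 26 against 9 and 6 and was 2.84-fold lower (q = 0.017). AN2016, known as amyR, encodes the zinc cluster activator of starch metabolism genes. It had 2055 and 1889 reads against 303 and 323 a 5.06-fold drop in the authors' deposited table (q = 1.13e-179).

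The list of genes that supply the sugar nucleotide for glucan synthesis also took in hexokinases. In the list of 7, 5 were called higher and 2 lower in the authors' deposited table, beside 36.3% and 35.9% of all genes tested, with a median log2 change of 0.38. With a coefficient of variation of 0.2 in edgeR the calls were even, 2 higher and 2 lower. AN9148, for the enzyme that makes UDP-glucose, had 11828 and 11172 reads against 11810 and 11460, or 10296 and 10307 normalized reads against 13133 and 12816. It was 1.26-fold higher (q = 6.09e-20). The phosphoglucomutase gene AN2867 was 1.30-fold, the hexokinase gene AN7459 1.30-fold and the glucokinase gene AN8689 1.76-fold higher in the same table. These 4 genes are below 2-fold and were named after their values were seen.

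The 2 lower genes of that list, AN2180 and AN4255, were 2.36-fold and 2.27-fold lower. Both are annotated as non-catalytic hexokinase-like regulators of extracellular proteases and not as enzymes of sugar supply. The hexokinase gene AN2638 rose from 3 and 0 reads to 16 and 20, a ratio of 15.4 (95% exact interval 4.72 to 75.8, counting error only). Its edgeR log2 change was 3.77 with all libraries and 2.87 without parental library b; without parental library a the parental strain had 0 reads. Scaling by library totals in edgeR left the list at 5 higher and 2 lower, beside 3066 higher and 4997 lower of 9338 genes.

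**Figure D5:**
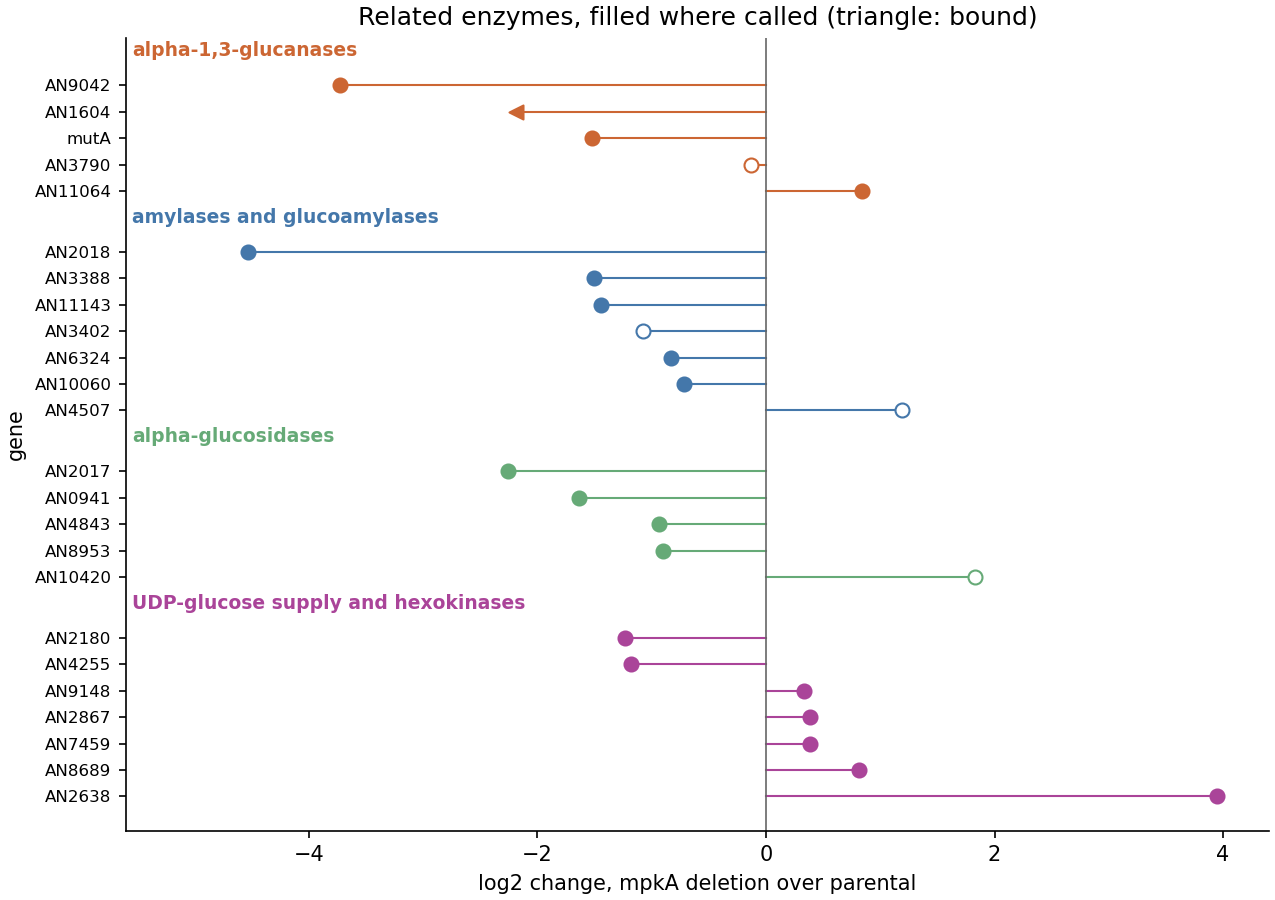
Log2 change, deletion over parental strain, of genes annotated as alpha-1,3-glucanases, amylases and glucoamylases, alpha-glucosidases, and UDP-glucose supply or hexokinase genes; filled points had a q-value under 0.05 in the authors' deposited table. The triangle for AN1604 is a bound from a floor of 3 reads, and AN7402 with 1 read in all is left out. The amylases shown do not include amyD and amyG, which were called higher. Those shown and called all lie below 0.

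The gene for RlmA (AN2984), a MADS-box factor, was not called, with 3923 and 3475 reads against 2834 and 2869 and q = 0.276 in the authors' deposited table. Its normalized reads were 3415 and 3206 against 3151 and 3209, so the strains overlapped. With edgeR the adjusted p was 0.0619, and it was 0.0218 without parental library b (log2 change -0.12) and 0.0434 without deletion library b (-0.09).

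Genes listed as markers of conidiation and of sexual development had reads in both strains. In bulk RNA, fewer cells of a type and less RNA per cell cannot be told apart. Of the 8 conidiation markers 7 were matched by RefSeq symbol. Of these, 4 were called lower, 1 higher and 2 not called in the authors' deposited table, beside 35.9% of all genes called lower and 36.3% higher. None was at 0 reads in any library. Their summed level is given in RPM (reads scaled by the library total). It was 81.5 and 77.3 in the parental libraries and 38.0 and 39.5 in the deletion libraries. With library totals as the scale, the median log2 change of all genes was itself -0.21 in edgeR. In the parental libraries most of these reads fell on abaA and vosA, and the 2 not called were wetA and dewA. abaA, a regulator of conidiophore development, was 9.02-fold lower and the spore hydrophobin gene rodA 4.91-fold lower, while the spore laccase gene yA was 4.26-fold higher.

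Of 6 markers of sexual development 3 were matched, and nsdD, steA and veA were all called lower, beside 35.9% of all genes tested. They were 1.54-fold, 1.42-fold and 2.65-fold lower in the authors' deposited table. Their summed level was 792 and 783 RPM in the parental libraries and 336 and 343 in the deletion libraries. Of the 3 genes, veA had the most reads in every library, with 16387 and 15539 against 4803 and 4876. Reads on these 3 genes do not by themselves show that cells of sexual development were present. AN7388 is the single gene annotated as a catalase-peroxidase, an enzyme type known from Hülle cells, and was picked after its values were seen. It had 200 and 221 reads against 43 and 28 a 4.78-fold drop in the authors' deposited table (q = 4.16e-20). The part of these markers in the falls of agsA and mutA was not tested.

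By profile over the 4 libraries, the genes nearest to mutA were AN10742 and AN8738, both of unknown function, and AN10376, a putative alpha-fucosidase. Their distances in centred log2 RPM were 0.02, 0.15 and 0.23, among 8355 genes with a mean of at least 50 reads. Like mutA, all 3 had fewer reads in deletion library b than in a, with AN10742 at 37 and 19 and AN8738 at 34 and 17. They were picked for closeness to mutA over these same libraries, so this likeness is not a separate result. Such a distance rests on 2 strains and 4 libraries only.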

How the data were processed

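RNA-seq of 2 strains with 2 libraries each was used. Per the labels' protocols, RNA came from Trizol extraction and libraries from TruSeq kit version 2. The submitters' processing notes name Bowtie2, HTSeq and DESeq; for versions and build, the sources used here give nothing. Of 10930 genes, 3 tables were deposited. Judged from the values, the deposited signal is each strain's mean of size-factor normalized reads over 2 libraries. The ratio or fold change, the p-values and the q-values are the authors', per the file headers; the deposited ratio is parental over deletion strain and was turned. Columns of 2 strains' values that belong to no sample here (2 columns) were not used.

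Each strain's mean stands in a pair of tables with different size factors, and these equations were solved for whole reads per library (100% of 10930 genes in each strain within 0.000118 reads), checked on simulated tables and against recomputed size factors. Recovered libraries carry no replicate number. The main result is the authors' comparison at q under 0.05. Alternatives on recovered reads were edgeR 4.0.16 (quasi-likelihood, TMM, filterByExpr, Benjamini-Hochberg), tested on simulated data, DESeq2 1.42.0 and limma 3.58.1 with a trend (prior count 2), in R 4.3.3. SE is the log2 change over the square root of F. Exact intervals came from scipy 1.17.1.

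Members and lists were chosen with earlier results of these data known. Named genes are the 5 members, mpkA, amyR, rlmA, list genes called with at least a 2-fold change (at most 6 per list), and the 3 genes nearest to the member that changed most; other names were added after values were seen. Lists came from words in the annotation. The markers wA, nosA, nsdC and cpeA had no match by symbol. No genome or sequence table was used, so no sequence is shown.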

Additional observations from a re-analysis of the deposited data

How the results depend on the processing

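Of 12 alternatives, agsA, amyG and mutA kept direction in all 12, with log2 changes of -1.64 to -1.42, 0.99 to 1.26 and -2.07 to -1.14. They kept the call in every alternative that used all 4 libraries. A fit without 1 library leaves 1 library in that strain, so the spread of that strain is not measured and a call there carries little weight. The count of called genes among the 5 ranged from 3 to 5. agsB kept its direction but was called in edgeR with TMM (-0.088), in limma (-0.088), with DESeq2 size factors (-0.071), with library totals (-0.29) and with no filter (-0.079). Leaving out a library gave -0.096 to -0.080 for agsB. amyD kept its direction and lost the call with library totals (0.077, adjusted p = 0.106). It also lost the call with a coefficient of variation of 0.2 (0.27, adjusted p = 0.464, the highest over all alternatives). At that coefficient, where 43.9% of 9338 genes were called, the alpha-glucan list had 3 genes called in place of 5 and the UDP-glucose list 4 in place of 7. Here the libraries themselves gave a coefficient of 0.023. No paired analysis was possible because the recovered libraries carry no replicate numbers; the fit with a replicate block was not run. Few reads limit mutA, AN9042 and AN1604, and the last was removed by the edgeR filter.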

Other observations

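Alpha-glucosidase genes, whose products release glucose from maltose and short alpha-glucans, were chosen as a list after their values were seen. Of 5 genes with that annotation 4 were called lower, 0 higher and 1 not called in the authors' deposited table, beside 35.9% of all genes tested called lower, with a median log2 change of -0.94. AN2017, which lies between AN2016 (amyR) and the alpha-amylase gene AN2018, had 6752 and 6314 reads against 1096 and 1095 and was 4.79-fold lower. AN0941 was 3.11-fold, AN4843 1.92-fold and AN8953 1.87-fold lower in the authors' deposited table. AN10420 rested on 4 and 2 reads against 10 and 7 (q = 0.10).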
